A study of Mus musculus with 4 samples.

Results

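The extracellular matrix genes described here are the collagens and the structural glycoproteins, proteoglycans and crosslinking enzymes that build the matrix around muscle cells. They were taken by gene symbol from the deposited expression table: collagen chains, laminins, fibulins, fibrillins, nidogens, thrombospondins, emilins, matrilins, the lysyl oxidase family, collagen prolyl and lysyl hydroxylases, and 13 single genes such as Fn1, Tnc, Dcn and Sparc. This rule was met by 44 of the 3760 listed genes, 19 of them collagens and 25 not. The table is a selection by the authors in which every gene had at least 10 CPM (the reads of a gene scaled to a common library total) in at least 2 libraries and differed at least 2-fold from the GFP library in growth medium in at least 1 other library. Of 98 gene names that the role lists below hold, 54 were not in the table, among them Col1a1, Col6a2, every laminin alpha chain, and every collagen prolyl 4-hydroxylase and lysyl hydroxylase (P4ha and Plod names), and they were not analysed here.

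The cells were myoblasts that the labels call Tw2 or twist2+, cultured from skeletal muscle of adult C57BL/6 mice on Matrigel, a coating extract that itself contains basement membrane proteins. Infection with a retrovirus lasted 24 h, the virus carrying either Twist2 followed by an internal ribosome entry site and GFP (Twist2-IRES-GFP) or GFP alone, and a further 24 h in growth medium (20% fetal bovine serum) followed. RNA was taken then (GM) or 5 days after the change to differentiation medium with 2% horse serum (DM). The 4 groups are Tw2-DM, Tw2-GM, GFP-DM and GFP-GM, and both viruses bring GFP into the same kind of cell. Each group is 1 library with no replicate, and the labels do not say how many animals or cultures went into it, so no test was run and every difference below is a difference between libraries.

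Collagens are triple-helical proteins. Some assemble into fibrils, some into the sheet-like network of the basement membrane that wraps each muscle fibre, and some link fibrils to cells or to each other. Laminins and nidogens form the other network of the basement membrane, fibronectin and the matricellular proteins tie matrix to integrin receptors, and lysyl oxidases crosslink collagen and elastin. In muscle most fibrillar collagen is made by fibroblasts and their progenitors, while muscle fibres and myogenic cells also contribute to their own basement membrane. Twist2 is a basic helix-loop-helix transcription factor of mesenchymal cells, a class of factor that binds short DNA motifs called E-boxes.

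The libraries held 12362290 reads (Tw2-DM), 11068073 reads (Tw2-GM), 9235281 reads (GFP-DM) and 9744075 reads (GFP-GM), so 1 read was worth between 0.0809 and 0.108 CPM. Twist2 itself stood at 674 CPM in Tw2-DM and 1438 CPM in Tw2-GM, against 0 reads in GFP-DM and 1 read in GFP-GM, as the labels require of Twist2 infection. The GFP libraries of cells labelled twist2+ thus held almost no Twist2 reads. Myh3, the embryonic myosin heavy chain of new myotubes, stood at 2528 CPM in Tw2-DM and 27313 CPM in GFP-DM, against 5.06 CPM in Tw2-GM and 25.9 CPM in GFP-GM. Myog, the myogenic factor that opens differentiation, stood at 378 CPM in Tw2-DM and 1074.7 CPM in GFP-DM. In growth medium Myog stood at 3.52 CPM in Tw2-GM and 76.4 CPM in GFP-GM. Myod1, the factor that sets myoblast identity, stood at 1068.2 CPM in Tw2-DM and 809.7 CPM in GFP-DM. In growth medium Myod1 stood at 547.1 CPM in Tw2-GM and 1184.2 CPM in GFP-GM. Myh3 and Myog were therefore present in both differentiation libraries and lower in Tw2-DM. Myh3, Myog and Myod1 were each lower in Tw2-GM than in GFP-GM. The part of these differences in the matrix values below was not tested. In such bulk libraries fewer matrix-producing cells and less matrix RNA per cell cannot be told apart.

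Matrix RNA was most abundant in Twist2 cells in differentiation medium and least abundant in GFP cells in differentiation medium. The 44 genes together took 38548 CPM in Tw2-DM (3.85% of the library), 23344 CPM in Tw2-GM (2.33%), 7032.7 CPM in GFP-DM (0.703%) and 13966 CPM in GFP-GM (1.40%). Tw2-DM was the highest of the 4 libraries for 30 of the 44 genes, whereas it was highest for 15.1% of all listed genes. GFP-DM was the lowest library for 27 of the 44 (61.4%) and for 39.1% of all listed genes, and it was also the highest library for 34% of all listed genes.

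**Figure D1:**
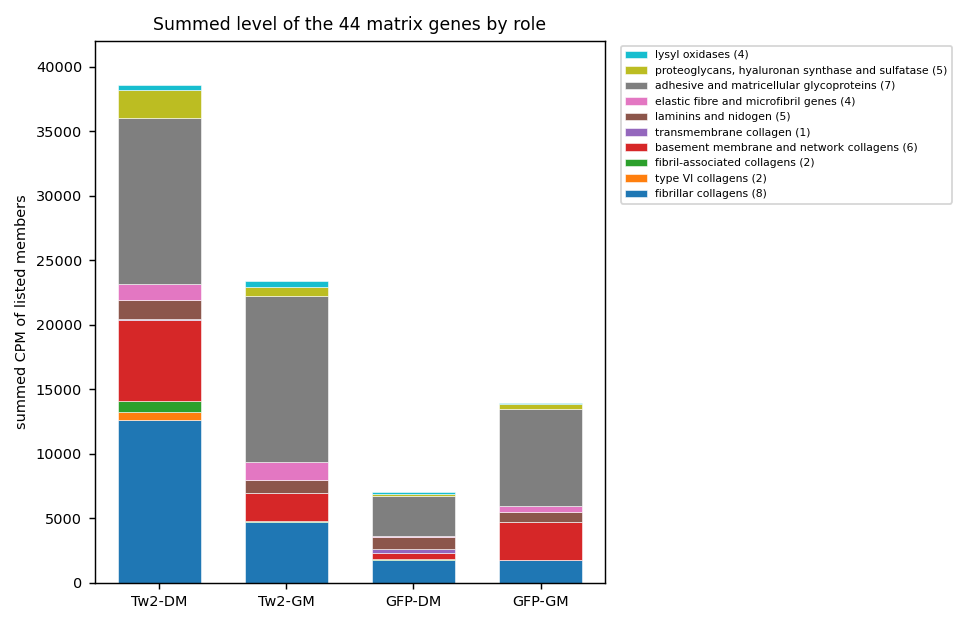
Summed CPM of the 44 matrix genes in each library, stacked by role; the number of genes in each role is given in the legend and each bar is 1 library. The Tw2-DM bar reaches 38548 CPM, with the fibrillar collagens (12641 CPM) and the adhesive and matricellular glycoproteins (12857 CPM) as its main parts, while the GFP-DM bar ends at 7032.7 CPM.

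**Figure D2:**
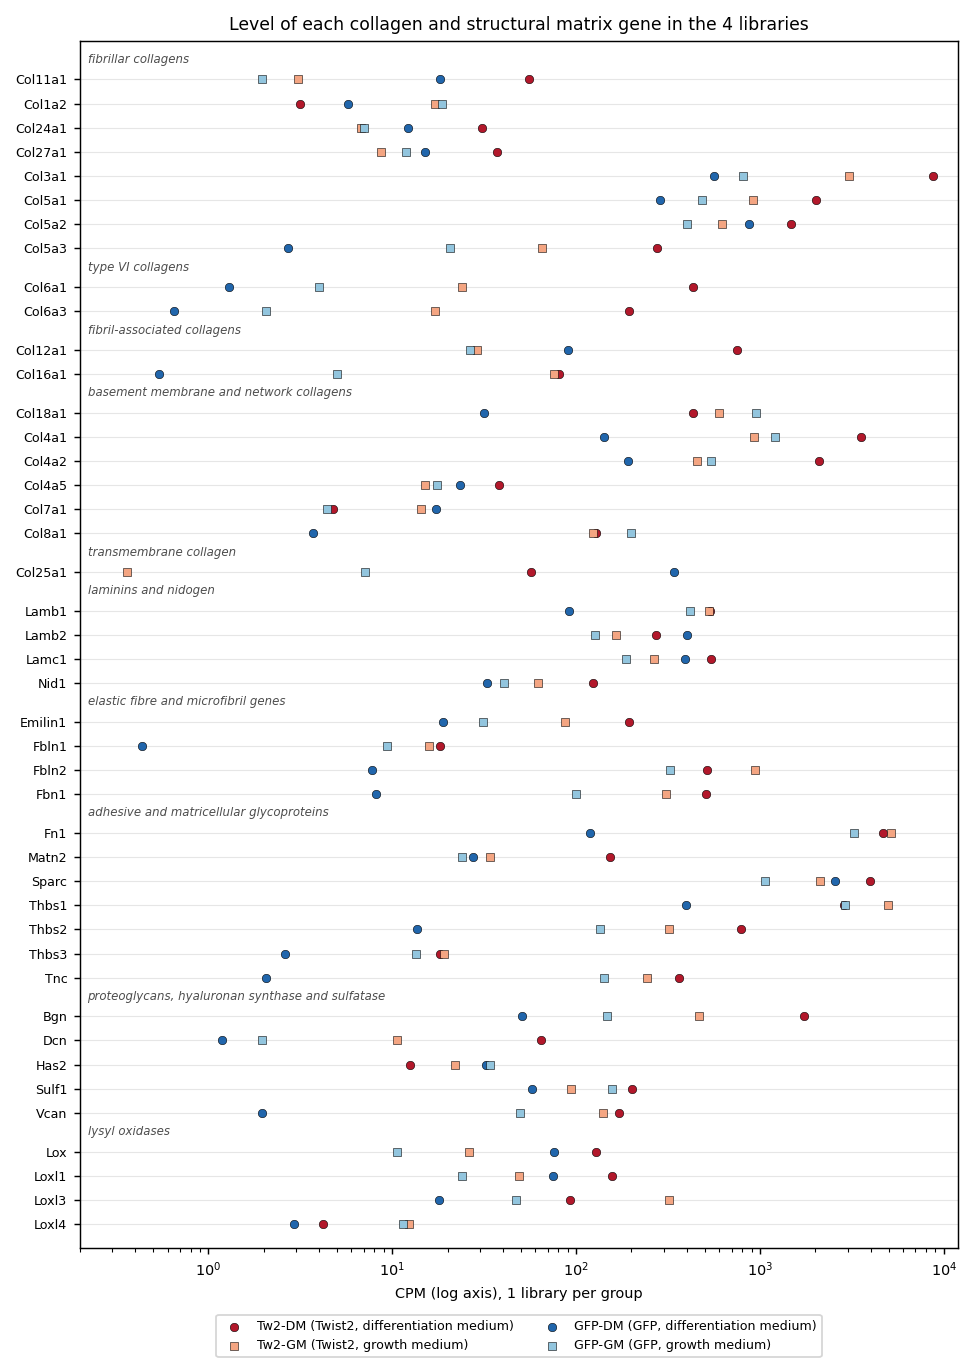
CPM of the matrix genes on a log axis in the 4 libraries, 1 point per library, grouped by role; circles are differentiation medium and squares growth medium, red shades Twist2 and blue shades GFP. For most genes the dark red Tw2-DM point lies farthest right and the dark blue GFP-DM point farthest left, with Col25a1, Lamb2 and Col7a1 among the genes highest in GFP-DM.

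Ratios were computed as the log2 of CPM + 1, which understates the change of genes with few reads, and a gene was counted as higher or lower when this ratio passed 2-fold and its higher library had at least 10 CPM. In differentiation medium, 32 of the 42 matrix genes with enough reads were at least 2-fold higher in Tw2-DM than in GFP-DM and 4 were lower, while 25.4% of all 3437 listed genes with enough reads were higher and 25.2% were lower. The median log2 ratio was 2.68 for the matrix genes and -0.06 for all genes. In growth medium 16 of 41 matrix genes were higher in Tw2-GM than in GFP-GM and 0 were lower, beside 5.21% of all listed genes higher and 10.6% lower. The medians there were 0.69 and -0.10. Of the matrix genes, 14 were higher with Twist2 in both media. Among these 14, Col6a1, Col6a3, Col16a1 and Dcn could be listed only through the Twist2 libraries. Col3a1 and Emilin1 could pass the 2-fold limit of the table only through a Twist2 library. The share of all listed genes higher in both media was not counted.

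Of the 44 genes, 5 (Col6a1, Col6a3, Col16a1, Fbln1 and Dcn) never reached 10 CPM in a GFP library and could be listed only through the Twist2 libraries. Among the 39 that did reach it, 27 of 37 with enough reads were higher and 4 lower in Tw2-DM than in GFP-DM, with a median of 2.42, and 12 of 36 were higher and 0 lower in Tw2-GM than in GFP-GM, with a median of 0.60. These counts are not free of the selection of the table. Of the 39 genes, 9 lay within 2-fold between the GFP libraries, Col3a1 and Col5a1 among them. Such genes could pass the 2-fold limit only through a Twist2 library.

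The strongest differences between Twist2 and GFP in either medium, by the log2 ratio of CPM + 1, belonged to Col6a1, Col6a3, Tnc and Col5a3, each in differentiation medium. Because these differences are the largest, the bases around their starts are given, from 250 bases before to 50 bases after the annotated start in RefSeq (GRCm38.p6, reverse strand for all 4, 5′ to 3′). Capitals mark the E-box CANNTG, where N is any base, a motif that reads the same on both strands.
Col6a1, chr10:76725995-76726294: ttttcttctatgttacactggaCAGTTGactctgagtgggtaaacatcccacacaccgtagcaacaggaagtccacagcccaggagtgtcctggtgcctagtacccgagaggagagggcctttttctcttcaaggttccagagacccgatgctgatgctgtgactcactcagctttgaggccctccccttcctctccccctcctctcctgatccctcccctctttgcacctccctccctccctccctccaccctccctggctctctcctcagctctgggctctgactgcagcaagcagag
Col6a3, chr1:90843922-90844221: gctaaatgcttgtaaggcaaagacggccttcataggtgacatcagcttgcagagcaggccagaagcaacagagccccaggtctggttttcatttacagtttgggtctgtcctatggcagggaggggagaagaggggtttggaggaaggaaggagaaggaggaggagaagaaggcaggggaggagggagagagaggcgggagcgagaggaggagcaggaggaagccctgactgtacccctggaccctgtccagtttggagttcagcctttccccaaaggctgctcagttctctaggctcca
Tnc, chr4:64046966-64047265: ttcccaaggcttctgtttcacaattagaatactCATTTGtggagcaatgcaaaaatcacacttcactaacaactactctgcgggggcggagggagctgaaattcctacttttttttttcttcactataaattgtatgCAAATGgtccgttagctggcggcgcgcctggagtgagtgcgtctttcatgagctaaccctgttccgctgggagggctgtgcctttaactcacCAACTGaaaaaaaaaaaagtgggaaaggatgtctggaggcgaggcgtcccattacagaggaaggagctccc
Col5a3, chr9:20815018-20815317: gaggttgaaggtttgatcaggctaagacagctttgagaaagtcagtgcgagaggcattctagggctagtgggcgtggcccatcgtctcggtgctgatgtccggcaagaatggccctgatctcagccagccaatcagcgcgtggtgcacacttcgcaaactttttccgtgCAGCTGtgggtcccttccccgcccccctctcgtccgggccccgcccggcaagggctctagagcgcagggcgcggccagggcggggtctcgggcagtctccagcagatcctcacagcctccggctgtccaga
The Tnc window held 3 E-boxes, starting 217, 113 and 21 bases before the gene start. The Col6a1 and Col5a3 windows held 1 each, 228 and 81 bases before it, and the Col6a3 window held none. Tnc has more than 1 window in the table and the most upstream is shown. A window was found for 31 of the 44 genes, and 20 of these (64.5%) held at least 1 E-box. That share was 63.4% for all listed genes with a window and 72.1% for all genes of the promoter table, so the share of the matrix genes lay between these. The share was 70.8% (17 of 24) among the matrix genes at least 2-fold higher in Tw2-DM than in GFP-DM. The form CATATG stood in 1 matrix window, that of Col3a1 (3.23%), in 1.71% of the windows of all listed genes and in 3.91% of all windows. These matches describe the letters in the windows only.

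The fibrillar collagens form the banded fibrils of connective tissue. Col3a1, the chain of type III collagen, stood at 8749.8 CPM in Tw2-DM and 3042.5 CPM in Tw2-GM, against 559.4 CPM in GFP-DM and 806.7 CPM in GFP-GM. Both Twist2 libraries thus lay above both GFP libraries, with a log2 ratio of 3.96 in differentiation medium (95% counting interval 3.93 to 4.01) and 1.91 in growth medium (1.88 to 1.95). These intervals, here and below, are exact conditional binomial intervals of the ratio of reads without a pseudocount. They hold counting error alone and say nothing of the spread between cultures.

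Type V collagen, which starts fibrils and sets their width, showed a different pattern for each of its chains. Col5a1 stood at 2018.6 CPM in Tw2-DM and 914.1 CPM in Tw2-GM, against 284.1 CPM in GFP-DM and 482.0 CPM in GFP-GM. Col5a2 stood at 1472.5 CPM in Tw2-DM and 617.7 CPM in Tw2-GM, against 874.7 CPM in GFP-DM and 403.2 CPM in GFP-GM. The log2 ratio of Tw2-DM to GFP-DM was 2.82 for Col5a1 and 0.75 for Col5a2. In CPM Col5a1 was lower in GFP-DM than in GFP-GM, and Col5a2 was higher, at log2 ratios of -0.76 and 1.12. After scaling to the reads outside the table these became 0.04 and 1.91. Col5a3, the third chain of the family, stood at 273.6 CPM in Tw2-DM and 65.3 CPM in Tw2-GM, against 2.71 CPM in GFP-DM and 20.6 CPM in GFP-GM, a log2 ratio of 6.21 in differentiation medium and 1.62 in growth medium.

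Of the minor fibrillar chains, Col11a1 stood at 55.2 CPM in Tw2-DM and 3.07 CPM in Tw2-GM, against 18.2 CPM in GFP-DM and 1.95 CPM in GFP-GM. Col24a1 and Col27a1 had log2 ratios of 1.28 and 1.25 in differentiation medium and of -0.04 and -0.42 in growth medium. Col1a2, a chain of type I collagen, the main collagen of connective tissue, was scarce throughout. It stood at 3.16 CPM in Tw2-DM and 17.0 CPM in Tw2-GM, against 5.74 CPM in GFP-DM and 18.6 CPM in GFP-GM. It was lower in differentiation medium under both viruses, and the Twist2 and GFP libraries of one medium lay within 2-fold of each other. In all, 6 of 7 fibrillar genes with enough reads were higher in Tw2-DM than in GFP-DM and 2 of 6 were higher in Tw2-GM than in GFP-GM, with none lower. The shares of all listed genes that were higher were 25.4% in differentiation medium and 5.21% in growth medium. Scaling to the reads outside the table left 3 of the 7 in differentiation medium.

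Type VI collagen forms beaded filaments next to the basement membrane of muscle, and mutations of its chains cause muscular dystrophy in people. Col6a1 stood at 433.5 CPM in Tw2-DM and 23.9 CPM in Tw2-GM, against 1.299 CPM (12 reads) in GFP-DM and 4.002 CPM in GFP-GM. Without a pseudocount that is 334-fold in differentiation medium, with a counting interval of 7.58 to 9.34 in log2. Col6a3 stood at 194.8 CPM in Tw2-DM and 17.0 CPM in Tw2-GM, against 0.6497 CPM (6 reads) in GFP-DM and 2.05 CPM in GFP-GM. Its 299.8-fold ratio in differentiation medium rests on those 6 reads, with an interval of 7.10 to 9.68 in log2. Both chains were thus low in every library but Tw2-DM, and within Twist2 cells they were higher in differentiation than in growth medium by 4.13 and 3.44 in log2.

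Among the fibril-associated collagens, which sit on the surface of fibrils, Col12a1 and Col16a1 differed in where Twist2 and GFP parted. Col12a1 stood at 752.9 CPM in Tw2-DM and 29.0 CPM in Tw2-GM, against 90.2 CPM in GFP-DM and 26.6 CPM in GFP-GM. Its growth medium libraries could not be told apart by counting error (log2 ratio 0.12, interval -0.11 to 0.37), while in differentiation medium the log2 ratio was 3.05. Col16a1 stood at 80.9 CPM in Tw2-DM and 75.4 CPM in Tw2-GM, against 0.541 CPM (5 reads) in GFP-DM and 5.03 CPM in GFP-GM. It was already 15.0-fold higher in Tw2-GM than in GFP-GM and scarcely differed between the Twist2 libraries.

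The basement membrane and network collagens lay, with the exception of Col7a1, within 2-fold between Twist2 and GFP cells in growth medium, and most were far apart in differentiation medium. Col4a1 and Col4a2, the chains of the common type IV collagen network, gave the clearest case. Col4a1 stood at 3540.1 CPM in Tw2-DM and 926.9 CPM in Tw2-GM, against 142.2 CPM in GFP-DM and 1200.1 CPM in GFP-GM. Col4a2 stood at 2104.9 CPM in Tw2-DM and 454.0 CPM in Tw2-GM, against 190.6 CPM in GFP-DM and 540.4 CPM in GFP-GM. Tw2-DM was the highest and GFP-DM the lowest library for both chains, 24.9-fold and 11-fold apart. In growth medium the log2 ratios were -0.37 and -0.25.

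Col18a1, the type XVIII chain that carries endostatin, stood at 431.2 CPM in Tw2-DM and 598.0 CPM in Tw2-GM, against 31.5 CPM in GFP-DM and 950.5 CPM in GFP-GM. Col8a1, a short-chain network collagen, stood at 128.2 CPM in Tw2-DM and 123.5 CPM in Tw2-GM, against 3.68 CPM in GFP-DM and 198.1 CPM in GFP-GM. For this pair GFP-GM was the highest library and the difference in differentiation medium came with a very low GFP-DM value. Col4a5, another type IV chain, ranged from 15.1 to 38.2 CPM and stayed within 2-fold between Twist2 and GFP in both media. Col7a1, the anchoring fibril collagen, went the other way. It stood at 4.77 CPM in Tw2-DM and 14.4 CPM in Tw2-GM, against 17.3 CPM in GFP-DM and 4.41 CPM in GFP-GM. It was therefore higher with Twist2 in growth medium (log2 ratio 1.51) and lower in differentiation medium (-1.67). Of the 6 genes of this group, 4 were higher and 1 lower in Tw2-DM than in GFP-DM, and 1 was higher in Tw2-GM than in GFP-GM. In differentiation medium 25.4% of all listed genes were higher and 25.2% lower, and in growth medium 5.21% were higher.

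Col25a1, a transmembrane collagen that motor innervation of mouse muscle requires, was the one collagen whose level in GFP-DM was far above all other libraries. It stood at 56.5 CPM in Tw2-DM and 0.361 CPM (4 reads) in Tw2-GM, against 339.1 CPM in GFP-DM and 7.08 CPM in GFP-GM. Its log2 ratio of Tw2-DM to GFP-DM was -2.56, with a counting interval of -2.70 to -2.47. Without a pseudocount Tw2-DM was 156.5-fold above Tw2-GM (interval 5.93 to 9.17 in log2) and GFP-DM was 47.9-fold above GFP-GM (5.24 to 5.95). With CPM + 1 both log2 ratios were 5.40, a value that for Twist2 cells is set by the pseudocount on 4 reads.

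**Figure D3:**
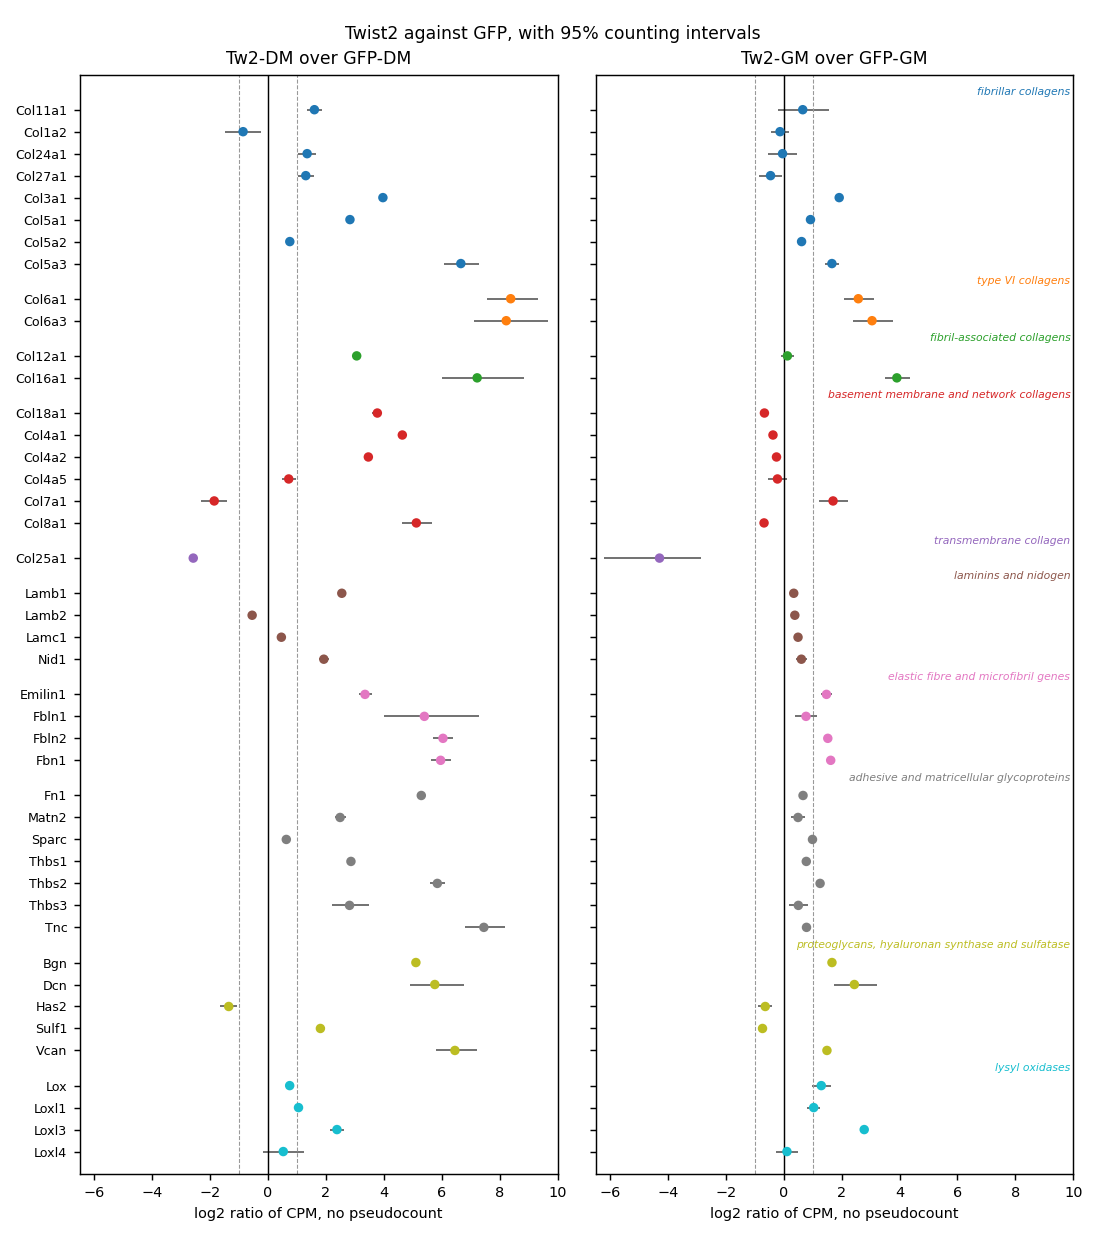
Log2 ratio of CPM without a pseudocount for the matrix genes, Tw2-DM over GFP-DM on the left and Tw2-GM over GFP-GM on the right, with 95% counting intervals as lines and dashed lines at 2-fold; colours are roles and each ratio compares 1 library with 1 library. Most points on the left lie right of the 2-fold line, with Col25a1, Col7a1 and Has2 left of its counterpart, while most points on the right lie closer to 0, with Col25a1, Lox, Loxl3 and Sparc among those farther from 0 there.

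The laminin and nidogen genes had a median log2 ratio of 0.46 in differentiation medium, where the collagens had 3.05, and of 0.49 in growth medium, where the collagens had 0.12. Lamb1, the laminin beta-1 chain, stood at 532.3 CPM in Tw2-DM and 526.5 CPM in Tw2-GM, against 91.1 CPM in GFP-DM and 414.4 CPM in GFP-GM. Lamb2, the beta-2 chain found at the neuromuscular junction, stood at 273.1 CPM in Tw2-DM and 164.1 CPM in Tw2-GM, against 399.9 CPM in GFP-DM and 125.9 CPM in GFP-GM. GFP-DM was thus the lowest library for Lamb1 and the highest for Lamb2. Lamc1, the gamma-1 chain shared by most laminins of muscle, had log2 ratios of 0.46 in differentiation medium and 0.49 in growth medium.

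Nid1, which bridges laminin and type IV collagen, stood at 124.2 CPM in Tw2-DM and 62.0 CPM in Tw2-GM, against 32.7 CPM in GFP-DM and 40.6 CPM in GFP-GM. Of the 5 listed genes of this group, 2 were higher and 1 lower in Tw2-DM than in GFP-DM, and 0 passed 2-fold in growth medium. In differentiation medium 25.4% of all listed genes were higher and 25.2% lower, and in growth medium 5.21% and 10.6%. The median of this group in differentiation medium became -0.14 on the scale of the reads outside the table.

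All 4 elastic fibre and microfibril genes were higher in Tw2-DM than in GFP-DM, and 3 of them also in Tw2-GM than in GFP-GM. Of all listed genes 25.4% and 5.21% were higher in these comparisons. Fbln1, among these 4, never reached 10 CPM in a GFP library and could be listed only through the Twist2 libraries. Fbn1, fibrillin-1, the backbone of microfibrils, stood at 506.1 CPM in Tw2-DM and 308.1 CPM in Tw2-GM, against 8.12 CPM in GFP-DM and 100.2 CPM in GFP-GM. Fbln2, fibulin-2, stood at 513.8 CPM in Tw2-DM and 934.0 CPM in Tw2-GM, against 7.80 CPM in GFP-DM and 325.4 CPM in GFP-GM. Both were therefore higher with Twist2 in either medium, with log2 ratios in differentiation medium of 5.80 and 5.87 and in growth medium of 1.61 and 1.52. Emilin1, a glycoprotein of elastic fibres, had log2 ratios of 3.28 and 1.45 in the same order, at 193.0 CPM in Tw2-DM and 19.0 CPM in GFP-DM. Fbln1, fibulin-1, stood at 18.3 CPM in Tw2-DM and 0.433 CPM (4 reads) in GFP-DM. In the gene annotation 20.1% of the exon length of Fbn1 overlaps a gene on the opposite strand, and the strand setting of the counting is not given in the sources used here.

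Among the adhesive and matricellular glycoproteins, 6 of 7 were higher in Tw2-DM than in GFP-DM and 1 of 7 was higher in Tw2-GM than in GFP-GM, with none lower. Of all listed genes 25.4% and 5.21% were higher in these comparisons. Fn1, fibronectin, stood at 4684.6 CPM in Tw2-DM and 5150.4 CPM in Tw2-GM, against 119.4 CPM in GFP-DM and 3248.4 CPM in GFP-GM. Its level scarcely differed between the Twist2 libraries, while GFP-DM was 39.2-fold below Tw2-DM. Tnc, tenascin-C, a matricellular protein of developing and regenerating tissue, stood at 360.8 CPM in Tw2-DM and 243.8 CPM in Tw2-GM, against 2.06 CPM (19 reads) in GFP-DM and 141.4 CPM in GFP-GM. Only GFP-DM was nearly empty of Tnc reads, which gave a 175-fold ratio in differentiation medium with an interval of 6.81 to 8.19 in log2.

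Thbs1, thrombospondin-1, stood at 2879.6 CPM in Tw2-DM and 4982.3 CPM in Tw2-GM, against 395.8 CPM in GFP-DM and 2905.0 CPM in GFP-GM. Thbs2, its close relative, stood at 785.8 CPM in Tw2-DM and 321.0 CPM in Tw2-GM, against 13.6 CPM in GFP-DM and 134.5 CPM in GFP-GM. Tw2-GM was thus the highest library for Thbs1 and Tw2-DM for Thbs2. Thbs3 had 18.3 CPM in Tw2-DM and 2.60 CPM in GFP-DM, and Matn2, matrilin-2, had 153.7 CPM in Tw2-DM and 27.4 CPM in GFP-DM, with log2 ratios of 2.42 and 2.45. Sparc, a collagen-binding glycoprotein, stood at 3974.4 CPM in Tw2-DM and 2125.7 CPM in Tw2-GM, against 2566.8 CPM in GFP-DM and 1068.9 CPM in GFP-GM. It was the member of this group within 2-fold in both media, at log2 ratios of 0.63 and 0.99.

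Of the proteoglycans, the hyaluronan synthase and the sulfatase, 4 were higher and 1 lower in Tw2-DM than in GFP-DM. The shares of all listed genes were 25.4% higher and 25.2% lower. Dcn, among the 4, could be listed only through the Twist2 libraries. Bgn, biglycan, a small proteoglycan that binds collagen, stood at 1742.7 CPM in Tw2-DM and 468.6 CPM in Tw2-GM, against 50.6 CPM in GFP-DM and 147.8 CPM in GFP-GM. Dcn, decorin, its relative, stood at 64.6 CPM in Tw2-DM and 10.6 CPM in Tw2-GM, against 1.19 CPM (11 reads) in GFP-DM and 1.95 CPM in GFP-GM. Tw2-DM was the highest and Tw2-GM the next library for both, and the GFP libraries of Dcn could not be told apart by counting error. Vcan, the large hyaluronan-binding proteoglycan versican, stood at 171.0 CPM in Tw2-DM and 139.4 CPM in Tw2-GM, against 1.95 CPM (18 reads) in GFP-DM and 49.6 CPM in GFP-GM.

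Sulf1, which trims sulfate groups from heparan sulfate, stood at 200.6 CPM in Tw2-DM and 94.1 CPM in Tw2-GM, against 57.3 CPM in GFP-DM and 156.6 CPM in GFP-GM. Has2, which makes hyaluronan, stood at 12.5 CPM in Tw2-DM and 21.9 CPM in Tw2-GM, against 32.2 CPM in GFP-DM and 34.1 CPM in GFP-GM. Has2 was thus the gene of this group lower with Twist2 in both media, by more than 2-fold in differentiation medium, with log2 ratios of -1.29 and -0.62.

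The lysyl oxidases crosslink collagen and elastin, and 4 genes of the family were listed. Lox stood at 127.6 CPM in Tw2-DM and 26.2 CPM in Tw2-GM, against 76.0 CPM in GFP-DM and 10.7 CPM in GFP-GM, and Loxl1 stood at 156.0 CPM in Tw2-DM and 49.2 CPM in Tw2-GM, against 75.3 CPM in GFP-DM and 24.0 CPM in GFP-GM. Both were higher in differentiation medium under either virus, Lox by 2.24 in log2 in Twist2 cells and 2.72 in GFP cells. Loxl3 stood at 93.0 CPM in Tw2-DM and 321.3 CPM in Tw2-GM, against 17.9 CPM in GFP-DM and 46.8 CPM in GFP-GM. It was lower in differentiation medium under either virus and higher with Twist2 in both media, with log2 ratios of 2.32 and 2.75. Of its exon length 11.6% overlaps Htra2 on the opposite strand. Loxl4 ranged from 2.92 to 12.3 CPM and differed by less than counting error between Twist2 and GFP. In this family 2 of 3 genes with enough reads were higher in differentiation medium and 3 of 4 in growth medium, and it was the group in which growth medium held the larger number. Of all listed genes 25.4% were higher in differentiation medium and 5.21% in growth medium.

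The change from growth to differentiation medium was then set side by side for the 2 viruses. In Twist2 cells, 23 of the 44 matrix genes were at least 2-fold higher in Tw2-DM than in Tw2-GM and 4 were lower, with a median log2 ratio of 1.06, beside 26.5% of all listed genes higher, 24.5% lower and a median of -0.22. In GFP cells, 11 of 39 genes with enough reads were higher in GFP-DM than in GFP-GM and 19 were lower, with a median of -1.0, beside 32.6% of all listed genes higher, 40.9% lower and a median of -0.40. Scaling to the reads outside the table gave 14 higher and 13 lower in GFP cells, so the balance in GFP cells turned on the scaling. Listed genes were selected on their ratios to GFP-GM, which raises the shares in the GFP comparison.

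Of the 19 collagens, 14 were higher in Tw2-DM than in Tw2-GM and 2 were lower, and of the 25 other matrix genes 9 were higher and 2 lower. In GFP cells 5 of 16 collagens were higher and 6 lower in GFP-DM than in GFP-GM, with a median of -0.76, and of 23 other genes 6 were higher and 13 lower, with a median of -1.44. Scaling to the reads outside the table gave 8 collagens higher and 4 lower in GFP cells, with a median of 0.04, and 6 of 22 other genes higher and 9 lower, with a median of -0.65. The summed fibrillar collagen level was 12641 CPM in Tw2-DM and 4675.2 CPM in Tw2-GM, and 1772.0 CPM in GFP-DM and 1752.0 CPM in GFP-GM. The summed level of the adhesive and matricellular genes was 12857 CPM in Tw2-DM and 12876 CPM in Tw2-GM, and 3127.7 CPM in GFP-DM and 7535.8 CPM in GFP-GM. In CPM the fibrillar sum thus had a ratio of differentiation to growth medium of 2.70 in Twist2 cells and 1.01 in GFP cells, or 3.23 and 1.76 on the scale of the reads outside the table. Within the GFP sum in CPM, Col3a1 was lower and Col5a2 higher in GFP-DM than in GFP-GM, at log2 ratios of -0.53 and 1.12. On the scale of the reads outside the table these became 0.27 and 1.91. The direction for Col3a1 thus turned on the scaling. The adhesive sum had a ratio of 0.999 in Twist2 cells and 0.415 in GFP cells, and on the other scale 1.19 and 0.722.

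The difference of the responses (the response of Twist2 cells less that of GFP cells, in log2) was above 1 for 30 of the 44 matrix genes and below -1 for 2, with a median of 2.01. For all 3760 listed genes it was above 1 in 25.5% and below -1 in 12.6%, with a median of 0.19. Scaling to the reads outside the table gave 27 and 6. Its largest values among the matrix genes were 6.11 for Tnc, 5.46 for Col8a1, 5.25 for Col6a1 and 5.00 for Col4a1, and it was -3.17 for Col7a1.

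Several patterns made up that difference. They are given for the matrix genes only, with no share of all listed genes beside them, so how common they were in the table is not known. On the CPM scale, in 6 genes, Sulf1, Thbs2, Col4a1, Col4a2, Col5a3 and Bgn, the change went in opposite directions, at least 2-fold higher in Tw2-DM than in Tw2-GM and at least 2-fold lower in GFP-DM than in GFP-GM. Col7a1 was the 1 gene with the reverse. Scaling to the reads outside the table left Thbs2, Col4a1, Col5a3 and Col7a1 with opposite directions past 2-fold, while the GFP response became -0.65 for Sulf1, -0.70 for Col4a2 and -0.74 for Bgn. In 10 genes, Fn1, Col18a1, Lamb1, Vcan, Col8a1, Thbs1, Fbn1, Thbs3, Tnc and Fbln2, the level was at least 2-fold lower in GFP-DM than in GFP-GM and stayed within 2-fold between the Twist2 libraries.

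A further 7 genes, Col3a1, Col5a1, Col24a1, Col27a1, Col4a5, Emilin1 and Matn2, were at least 2-fold higher in Tw2-DM than in Tw2-GM and within 2-fold between the GFP libraries. The selection of the table partly sets this pattern, since such genes could be listed only through a Twist2 library. For Col5a1, Col24a1, Col27a1, Col4a5 and Matn2, Tw2-GM was also within 2-fold of GFP-GM, so Tw2-DM had to be the library that differed from it. Under both viruses 7 genes, Col5a2, Col11a1, Col12a1, Col25a1, Lamc1, Lox and Loxl1, were higher in differentiation medium, and 3 genes, Col1a2, Loxl3 and Loxl4, were lower. Lamb2 and Sparc were at least 2-fold higher in GFP-DM than in GFP-GM and within 2-fold between the Twist2 libraries. Of the remaining genes Nid1 and Has2 stayed within 2-fold under both viruses by the log2 ratio of CPM + 1. Nid1 lay at the limit in Twist2 cells, with a log2 ratio of 0.99, or 1.24 on the scale of the reads outside the table. A further 5 genes had too few reads in the GFP libraries to be counted.

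**Figure D4:**
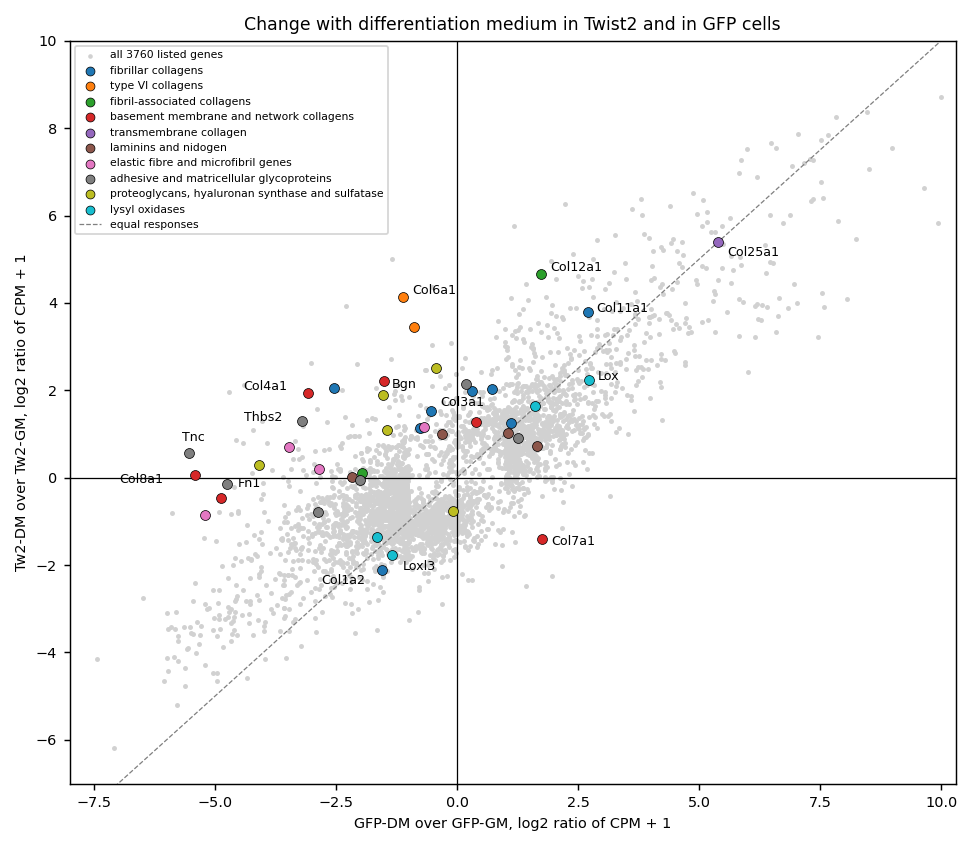
Log2 ratio of differentiation to growth medium in Twist2 cells (vertical) against that in GFP cells (horizontal), with CPM + 1; coloured points are the matrix genes by role, grey points all 3760 listed genes, and the dashed line marks equal responses. Most matrix genes lie above the dashed line, Tnc, Col8a1 and Fn1 at the far left near the horizontal axis, Col4a1 and Thbs2 in the upper left, Lox and Col25a1 near the line, and Col7a1 as the 1 matrix gene in the lower right.

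Levels of different genes were compared per length, as CPM divided by the annotated exon length in kilobases (RPKM). In Tw2-DM the most abundant matrix transcripts were Sparc at 1049.2 RPKM, Col3a1 at 891.4 RPKM, Col4a1 at 474.3 RPKM and Thbs1 at 474.2 RPKM. In Tw2-GM they were Thbs1 at 820.4 RPKM, Sparc at 561.2 RPKM, Fn1 at 440.8 RPKM and Col3a1 at 310.0 RPKM. In GFP-DM Sparc stood at 677.6 RPKM and the next gene, Col5a2, at 91.2 RPKM. In GFP-GM the order was Thbs1 at 478.4 RPKM, Sparc at 282.2 RPKM, Fn1 at 278.0 RPKM and Col4a1 at 160.8 RPKM. Sparc was therefore among the first 2 in every library, and in GFP-DM it stood far above the rest.

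Chains that assemble into one protein could be set against each other on this scale. The ratio of Col4a1 to Col4a2 RPKM was 1.49 in Tw2-DM and 1.81 in Tw2-GM, against 0.662 in GFP-DM and 1.97 in GFP-GM. The ratio of Col5a1 to Col5a2 was 1.55 in Tw2-DM and 1.67 in Tw2-GM, against 0.367 in GFP-DM and 1.35 in GFP-GM. For both pairs GFP-DM was the library with a ratio below 1. The ratio of Col6a1 to Col6a3 lay between 3.84 and 6.08 in the 4 libraries. Lamb1 to Lamb2, chains that take the same place in different laminins, gave 1.20 in Tw2-DM and 1.97 in Tw2-GM, against 0.140 in GFP-DM and 2.02 in GFP-GM.

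Genes that fold, secrete and trim collagen are a separate list of 30 names, of which 11 were in the table. Of 10 with enough reads 7 were higher and 1 lower in Tw2-DM than in GFP-DM, beside 25.4% and 25.2% of all listed genes, with a median log2 ratio of 1.39. In growth medium 2 of 10 were higher and 1 lower in Tw2-GM than in GFP-GM, beside 5.21% and 10.6% of all listed genes. Pcolce, which enhances removal of the C-terminal propeptide of procollagen, stood at 1074.3 CPM in Tw2-DM and 657.9 CPM in Tw2-GM, against 177.5 CPM in GFP-DM and 196.5 CPM in GFP-GM. Bmp1, the protease that removes that propeptide, stood at 132.5 CPM in Tw2-DM and 118.2 CPM in Tw2-GM, against 18.8 CPM in GFP-DM and 61.1 CPM in GFP-GM. Bmp1 and Pcolce were both highest in Tw2-DM. Pcolce2, also in the list and named here after its values were seen, was highest in Tw2-GM. It stood at 2.43 CPM in Tw2-DM and 75.5 CPM in Tw2-GM, against 0.217 CPM in GFP-DM and 36.95 CPM in GFP-GM. Leprel2, a prolyl 3-hydroxylase, had 61.5 CPM in Tw2-DM and 2.71 CPM in GFP-DM, a log2 ratio of 4.08. Other listed prolyl 3-hydroxylases did not share this, Leprel1 at -1.17 and Lepre1 at 0.34, both named here after their values were seen.

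Of 24 matrix receptor names 9 were in the table. Of these 9, 6 were higher and 0 lower in Tw2-DM than in GFP-DM, beside 25.4% and 25.2% of all listed genes, with a median of 1.45. Mrc2, an endocytic receptor for collagen, stood at 736.6 CPM in Tw2-DM and 302.9 CPM in Tw2-GM, against 4.76 CPM in GFP-DM and 36.3 CPM in GFP-GM. Its log2 ratios were 7.0 in differentiation medium and 3.02 in growth medium. Itgb3, an integrin subunit that pairs to bind fibronectin, stood at 36.89 CPM in Tw2-DM and 27.56 CPM in Tw2-GM. Its levels in the GFP libraries were 1.299 CPM in GFP-DM and 6.979 CPM in GFP-GM. Itgb3 thus never reached 10 CPM in a GFP library and could be listed only through the Twist2 libraries. Its log2 ratios were 4.04 in differentiation medium and 1.84 in growth medium. It is among the receptors counted as higher in each medium. The syndecans Sdc1 and Sdc3 had log2 ratios of 2.42 and 2.30 in differentiation medium. Itga7 and Dag1, named here after their values were seen, were the listed receptors with the highest CPM in both differentiation libraries. Both lay below GFP-DM in Tw2-DM but within 2-fold, with log2 ratios of -0.71 and -0.56. In growth medium 2 of 8 receptors were higher and 1 lower, beside 5.21% and 10.6% of all listed genes.

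A list of 37 other small proteoglycans, fibril regulators and crosslink enzymes outside the rule had 12 in the table. Of 11 with enough reads 4 were higher and 2 lower in Tw2-DM than in GFP-DM, beside 25.4% and 25.2% of all listed genes, with a median of 0.45, and 2 were higher and 2 lower in Tw2-GM than in GFP-GM. Efemp2, a fibulin needed for elastic fibres, stood at 237.3 CPM in Tw2-DM and 20.6 CPM in GFP-DM. Igfbp7 and Ecm1 had log2 ratios of 2.49 and 2.39 in differentiation medium. The lower genes were Npnt and Ogn, at -1.72 and -1.20, named here after their values were seen.

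Markers of other cell types were examined because the same matrix genes are typical of fibroblasts. Of 10 fibroblast and fibro-adipogenic markers 3 were in the table, with a summed level of 1045.6 CPM in Tw2-DM and 973.4 CPM in Tw2-GM, against 306 CPM in GFP-DM and 526.3 CPM in GFP-GM. Most of that sum is Gsn, which muscle cells also express, at 1017.9 CPM in Tw2-DM and 879.2 CPM in Tw2-GM, against 292.8 CPM in GFP-DM and 450.8 CPM in GFP-GM. Its libraries had the same order as the summed matrix level. Tcf7l2 stood at 24.4 CPM in Tw2-DM and 61.4 CPM in Tw2-GM, against 13.2 CPM in GFP-DM and 64.5 CPM in GFP-GM. Ly6a, the Sca-1 antigen, stood at 3.32 CPM in Tw2-DM and 32.9 CPM in Tw2-GM, against 0 reads in GFP-DM, where 3 reads would be 0.325 CPM, and 10.98 CPM in GFP-GM. For Tcf7l2 and Ly6a the growth medium libraries were the higher ones, and GFP-DM was the lowest library for all 3. Pdgfra, Thy1, Dpt and the other fibroblast markers were not in the table and were not analysed here.

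Of 9 myoblast markers 8 were in the table, with a summed level of 11592 CPM in Tw2-DM and 3131.0 CPM in Tw2-GM, against 20524 CPM in GFP-DM and 6900.0 CPM in GFP-GM, which fits the label of myogenic cells in all 4 libraries. Of 5 pericyte and smooth muscle markers 2 were in the table, with summed levels of 317.3 CPM in Tw2-DM and 156.6 CPM in Tw2-GM, against 5.09 CPM in GFP-DM and 177.9 CPM in GFP-GM. The 2 genes differed in order. Notch3 stood at 312.6 CPM in Tw2-DM and 71.5 CPM in Tw2-GM, against 4.98 CPM in GFP-DM and 126.1 CPM in GFP-GM. Rgs5 stood at 4.69 CPM in Tw2-DM and 85.1 CPM in Tw2-GM, against 0.108 CPM in GFP-DM and 51.7 CPM in GFP-GM. Of 4 adipocyte markers Lpl was in the table, at 20.6 CPM in Tw2-DM, 1.27 CPM in Tw2-GM, 10.4 CPM in GFP-DM and 4.21 CPM in GFP-GM. No endothelial, immune or Schwann cell marker of those searched was in the table. The part of other cells in the matrix values was not tested.

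Matrix genes have long transcripts, and length moved with the ratios over all genes. When all listed genes were split by exon length into 5 groups, the median log2 ratio of Tw2-DM to GFP-DM was 0.41, 0.25, -0.02, -0.22 and -0.70 in order of rising length. No matrix gene was in the shortest group and 14 were in the longest. The longest genes as a whole were thus lower in Tw2-DM. The median of 2.68 for the matrix genes pools their lengths, and no median of the matrix genes is given by length group.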

How the data were processed

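Total RNA from 4 groups of cultured mouse myoblasts, 1 library each, was sequenced on Illumina libraries, as the labels' protocols state. TopHat2 2.0.0, DESeq2 1.6.3 and the build GRCm38 (mm10) appear in the submitters' processing notes with no role for each. The sources used here do not give the read counter, its annotation or its strand setting. CPM values were deposited by the authors for 3760 genes, scaled to each library's total. Their deposited log2 columns, each against GFP-GM, equalled the log2 ratio of CPM + 1 within 1.3e-11, and were used for that check and to find the selection of the table. Its remaining column, a flag equal to 1 in every row, was not used.

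All CPM values were whole multiples of 1 read within 0.001 reads, which gave each gene's reads and each library's total. With 1 library per group no count model was fitted and no p-value is given. The log2 ratio of CPM + 1 was computed for 4 comparisons of 2 libraries and for the difference of the responses, over all 3760 genes, with calls at 2-fold and 10 CPM in the higher library. Exact conditional binomial (Clopper-Pearson) 95% intervals came from the reads. The reads carry no molecular identifiers and may repeat one molecule, so the intervals cover counting error only, and a listed 0 allows up to 3 reads, or 0.243 CPM (Tw2-DM) to 0.325 CPM (GFP-DM). Alternatives were pseudocounts of 0.1 and 5 CPM, median-of-ratios size factors, scaling to the reads outside the table, and no minimum CPM. Exon lengths and positions come from GENCODE M21 (GRCm38), which held 3607 symbols directly and 141 through an older symbol, and promoter windows from RefSeq (GRCm38.p6). Python 3.11.15, pandas 2.3.3, SciPy 1.17.1 and matplotlib 3.10.9 were used, and the calculation was tested on simulated data.

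The genes, role lists and marker lists were chosen with earlier results of these data known. Every gene that the symbol rule found could be named, and 1 of them, kept in the counts and sums, is not reported here by name or shown in the plots of single genes. Genes of the other lists were named at an absolute log2 ratio of at least 2 between Twist2 and GFP in either medium, apart from those said to be named after their values were seen. Promoters were printed for the 4 members with the largest such ratio.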

Additional observations from a re-analysis of the deposited data

Results flagged for a closer look

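In 7 of the 44 matrix genes the change from growth to differentiation medium passed 2-fold in opposite directions in Twist2 and in GFP cells. The share of all listed genes with opposite directions is not given here, so whether 7 is many cannot be said. Scaling to reads outside the table left 4 of them, Thbs2, Col4a1, Col5a3 and Col7a1, as the GFP response of Sulf1, Col4a2 and Bgn came within 2-fold. With 1 library per group the difference between the responses was not tested. The difference, Twist2 minus GFP on the log2 scale, was 5.00 for Col4a1, whose log2 ratio of differentiation to growth medium was 1.93 in Twist2 cells and -3.07 in GFP cells. It was 3.71 for Col4a2, from 2.21 in Twist2 cells and -1.50 in GFP cells. The difference was 4.59 for Col5a3, 4.50 for Thbs2, 3.42 for Bgn and 2.52 for Sulf1, each with a higher level in differentiation medium in Twist2 cells and a lower one in GFP cells. Col7a1 had the opposite arrangement and a difference of -3.17, from -1.41 in Twist2 cells and 1.76 in GFP cells, at no more than 17.3 CPM in any library. Myh3 differed between the same libraries, with 2528 CPM in Tw2-DM and 27313 CPM in GFP-DM, and its part in these differences was not tested.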

How the results depend on the processing

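Every comparison rests on 1 library per group, so no setting gives an error between cultures. Over the alternatives the number of matrix genes higher with Twist2 was 28 to 32 in differentiation medium and 14 to 21 in growth medium, the number higher in Tw2-DM than in Tw2-GM was 23 to 25, and the number with a larger response in Twist2 cells was 27 to 30. Of the counts of lower genes, that for Tw2-DM against Tw2-GM was 2 with a pseudocount of 5 CPM, against 4. That for the difference of the responses was 6 after scaling to reads outside the table, against 2, and that for Tw2-GM against GFP-GM was 1 with no minimum CPM, against 0, the gene being Col25a1 at 4 reads in Tw2-GM. Scaling to the reads outside the table also turned the GFP response from 11 higher and 19 lower to 14 and 13. It moved the median of all genes by -0.57 in log2 in Tw2-DM against GFP-DM, by 0.78 in GFP-DM against GFP-GM and by 0.25 in Tw2-DM against Tw2-GM, because listed genes took 47.2% of reads in Tw2-DM and 65.1% in GFP-DM. Among all genes it changed the share of 2-fold calls that were higher to 24.3%, against 50.2%, in Tw2-DM against GFP-DM, and to 69.8%, against 44.4%, in GFP-DM against GFP-GM. Size factors moved the median by 0.23 in growth medium and by 0.34 in the GFP response, and changed the share of higher calls in growth medium to 53%, against 33%. The median GFP response changed sign for the fibrillar collagens, to 0.23 with size factors and 0.67 outside the table, and for the fibril-associated collagens. No paired analysis was possible because each group has 1 library and the labels carry no replicate numbers.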

Other observations

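The closest listed pairs of collagen genes are given with both media. Col3a1 (chromosome 1, 45311538 to 45349706, plus strand) and Col5a2 (45374321 to 45503282, minus strand) lie 24.6 kb apart in GRCm38. Their log2 ratios of Tw2-DM to GFP-DM were 3.96 and 0.75, and of Tw2-GM to GFP-GM 1.91 and 0.61. The head-to-head pair Col4a1 (chromosome 8, 11198423 to 11312826, minus strand) and Col4a2 (11312805 to 11449287, plus strand) overlaps by 22 bp. Its log2 ratios of Tw2-DM to GFP-DM were 4.63 and 3.46, and of Tw2-GM to GFP-GM -0.37 and -0.25.

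The RPKM ratio of Col3a1 to Col1a2 was 3511 in Tw2-DM and 227 in Tw2-GM, against 123 in GFP-DM and 55.0 in GFP-GM. Pax7, a marker of muscle stem cells, stood at 34.6 CPM in Tw2-DM and 60.5 CPM in Tw2-GM, against 4.01 CPM in GFP-DM and 78.7 CPM in GFP-GM.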
